A study of Mus musculus with 4 samples.

Results

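Open chromatin was examined at 10 mouse genes that mark blood and endothelial cells: Ptprc, Spi1, Gata1, Tal1, Csf1r and Cd68 for blood, and Pecam1, Cdh5, Kdr and Tek for endothelium. They were chosen by name as markers of the other cell types that a rib preparation can hold, and they are 10 of 20257 protein-coding genes that were measured. Only Kdr and Tek had a promoter peak in all 4 libraries, and Ptprc, Gata1, Csf1r and Cdh5 had none in any library. A promoter peak is a called ATAC-Seq peak whose summit lies within 1 kb of the gene start, taken as the 5′ end of the gene record. Which genes were called in all 4 libraries changed with this limit, with the q-value and with the number of peaks.

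ATAC-Seq marks accessible DNA by the sites where the Tn5 transposase inserts sequencing adapters. It was performed on primary chondrocytes, the cells of cartilage, from the rib cartilage of newborn mice after few passages. There were 4 libraries, 2 replicates labelled Cho (Rep1 and Rep2) with no genotype given, 1 labelled WT, and 1 labelled E160(delta/delta);E308(delta/delta), here called the deletion, in which both upstream elements of the cartilage gene Sox9 were removed. Both named genotypes came from crosses of heterozygous deletion mice that were made by editing C57BL/6J embryos, and no sorting of the cells was described.

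Every tissue that holds vessels and marrow carries cells of the blood and endothelial lineages. Spi1 (PU.1), Gata1 and Tal1 are transcription factors that set up myeloid, erythroid and early blood fates, and Ptprc (CD45), Csf1r and Cd68 are a phosphatase of all leukocytes, the growth factor receptor of macrophages and a lysosomal protein of macrophages. Pecam1 and Cdh5 (VE-cadherin) are adhesion proteins of endothelial junctions, and Kdr and Tek are the receptors for vascular endothelial growth factor and angiopoietin. Cartilage itself holds no vessels, whereas the perichondrium, marrow and muscle around it do.

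The labelled cell type was checked first. A list of 12 cartilage genes had promoter peaks at 7 genes in Cho Rep1 and at 11 in each of the other libraries, and only Comp had none in any. In Cho Rep1 this was 58.3% of the list against 58.6% of all genes, so the list did not stand out there. In the other libraries it was 91.7%, against 62.2% to 67.8% of all genes. The Sox9 promoter was called in all 4 libraries, with fold enrichments of 18.6 and 11.8 in the Cho replicates, 9.47 in WT and 8.68 in the deletion. The Col2a1 promoter, of the main cartilage collagen, was also called in all 4, at 4.65, 5.71, 5.56 and 5.04 in the same order. These values were low beside the median called promoter, at 12.2, 17.7, 12.7 and 12.5. Fold enrichment is the ratio of the tags stacked at the summit to the local background, each raised by a pseudocount of 1. Values are thus relative to each list. The estimated library backgrounds were 1.37 and 1.96 tags in the Cho replicates, 0.36 in WT and 0.63 in the deletion, so the pseudocount weighs most in WT. The lists held 76242 peaks for Cho Rep1, 148330 for Cho Rep2, 90971 for WT and 169591 for the deletion, and the estimated depth ran from 4622 tags per Mb in WT to 20816 in Cho Rep2. With 1 library per genotype, and 2 Cho replicates on different genome builds, no test between groups was possible and none is given. In a bulk library, fewer cells of a type and less open chromatin per cell cannot be told apart.

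Starts of genes active in many tissues are rich in CpG dinucleotides, and those of tissue-restricted genes are often poor in them. In the 300 bases at the gene start, 250 before it and 50 from it on, Kdr held 18 CpG, Tal1 11, Gata1 8, Cdh5 5, Ptprc, Spi1, Cd68 and Pecam1 4 each, Tek 3 and Csf1r 0, against a median of 13 over all genes. The promoters of the pair called in every library and of Ptprc, called in none, are given as read from the NCBIM37 (mm9) genome, 5′ to 3′ on the gene's strand, with each CpG in capitals.
Kdr promoter, chr5:76374434-76374733, minus strand: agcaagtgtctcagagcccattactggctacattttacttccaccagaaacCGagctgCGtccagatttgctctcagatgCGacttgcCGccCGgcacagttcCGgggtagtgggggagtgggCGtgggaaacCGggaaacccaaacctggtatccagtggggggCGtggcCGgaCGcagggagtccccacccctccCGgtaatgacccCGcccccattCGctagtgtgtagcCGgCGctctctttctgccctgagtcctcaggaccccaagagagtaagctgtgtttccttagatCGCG
Tek promoter, chr4:94405730-94406029, plus strand: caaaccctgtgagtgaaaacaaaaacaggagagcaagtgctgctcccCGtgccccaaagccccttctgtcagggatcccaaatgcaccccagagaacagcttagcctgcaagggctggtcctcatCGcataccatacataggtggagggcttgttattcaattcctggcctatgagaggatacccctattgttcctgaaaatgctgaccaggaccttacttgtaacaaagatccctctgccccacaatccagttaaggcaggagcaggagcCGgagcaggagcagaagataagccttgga
Ptprc promoter, chr1:140071833-140072132, minus strand: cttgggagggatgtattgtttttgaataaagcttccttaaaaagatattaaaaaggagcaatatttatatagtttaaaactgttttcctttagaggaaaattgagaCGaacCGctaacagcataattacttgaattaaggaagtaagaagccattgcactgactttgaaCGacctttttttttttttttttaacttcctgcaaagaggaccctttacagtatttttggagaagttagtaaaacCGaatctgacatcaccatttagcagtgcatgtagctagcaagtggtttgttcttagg
The Kdr sequence carries its CpG throughout, whereas Tek was called in every library with fewer CpG than Ptprc, which was called in none.

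Among the blood genes the promoter calls were few and differed between libraries. Of the 6 blood genes, 1 had a promoter peak in Cho Rep1, 3 in Cho Rep2, 0 in WT and 2 in the deletion. Of the 4 endothelial genes, the counts were 3, 2, 3 and 3. Over all 10 genes these made 4 in Cho Rep1, where 58.6% of all genes were called, 5 in Cho Rep2, where 64.9% were called, 3 in WT, where 62.2% were called, and 5 in the deletion, where 67.8% were called. Both Cho replicates called 3 of the 10, Tal1, Kdr and Tek, against 54.1% of all genes. All 4 libraries called 2 of the 10, against 52.7% of all genes, and no library called 4 of the 10, against 28.0% of all genes. The counts over all 10 genes lay below the share of all genes called in each library, and so did those of the blood genes. The endothelial genes lay above it in Cho Rep1, WT and the deletion, at 75% of 4 genes, and below it in Cho Rep2, at 50%. In the libraries above it, the calls included Pecam1, through the start of its gene record. Measured from the curated transcript start, an alternative chosen after seeing the data, only Kdr and Tek of the 4 were called, or 50%. The higher share of the endothelial genes thus rested on the annotated start of Pecam1.

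**Figure D1:**
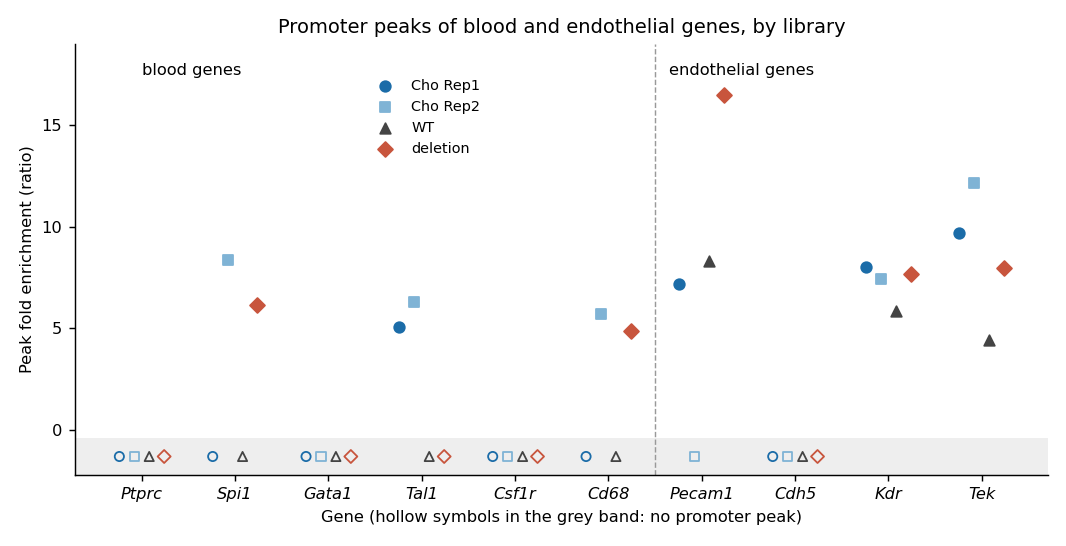
Fold enrichment (ratio) of the promoter peak of each of the 10 genes, with 1 symbol per library, and hollow symbols in the grey band where no promoter peak was called. Kdr and Tek have filled symbols for all 4 libraries, between 4.41 and 12.2, and Ptprc, Gata1, Csf1r and Cdh5 have hollow symbols alone.

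Ptprc, which encodes CD45 and is expressed by all nucleated blood cells, had no summit near its start in any library. The closest summit lay 16.6 kb upstream in Cho Rep1, 16.5 kb upstream in Cho Rep2, 17.0 kb upstream in WT and 5.00 kb upstream in the deletion. All of these were weak, with fold enrichments of 5.91, 4.06, 4.41 and 4.30.

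Spi1, listed as Sfpi1 in the NCBIM37 annotation, had a promoter peak in Cho Rep2, enriched 8.35 times, and one in the deletion, enriched 6.15 times. Both summits lay 684 bp from the start of the gene record, and neither Cho Rep1 nor WT had a summit there. In NCBIM37 the start of the curated coding transcript lies 13706 bp further downstream, and in the libraries on that build no summit was closer to it than 5467 bp. For Cho Rep2 the distance was measured from the start of the GRCm38 gene record alone, since no separate curated start was available there. By that distance its summit lay at the same place as that of the deletion. The Spi1 call in the deletion thus lay at the upstream start of the record and not at the curated one. Gata1, which drives red cell and megakaryocyte genes, had no summit within 10 kb of its curated start in any library.

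Tal1, a factor of early blood and endothelial precursors, was called in the Cho replicates alone. Its fold enrichment was 5.07 in Cho Rep1 and 6.29 in Cho Rep2, 5.68 ± 0.866 (SD, n = 2), with summits 777 and 615 bp into the gene. In the deletion the nearest summit had a fold enrichment of 4.10 and lay 1025 bp from the start, just outside the limit of 1 kb, and in WT the nearest lay 3643 bp upstream. The missing call in the deletion thus turned on the limit itself.

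Csf1r, the receptor that macrophages need for survival, was a near miss in every library. Its closest summit lay 1477 bp into the gene in Cho Rep1, 1445 bp in Cho Rep2 and in WT, and 1439 bp in the deletion, in an intron. The fold enrichments there were 15.2 and 13.0 in the Cho replicates, 5.79 in WT and 10.8 in the deletion. A limit of 2 kb in place of 1 kb would count Csf1r in all 4 libraries, so the absence of a call at this gene depends on the window.

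Cd68 had a promoter peak in Cho Rep2, enriched 5.73 times with its summit 155 bp upstream of the start, and one in the deletion, enriched 4.87 times with its summit 83 bp upstream. The summits held 86 and 26 tags, which were 44.0 and 41.5 times the library background, against 10.7 to 19.2 times at Kdr and Tek in the same libraries. Cd68 spans 1.94 kb, and strong peaks of the ubiquitous translation factor gene Eif4a1 lay 6.31 and 5.24 kb upstream of it in all 4 libraries. Cho Rep1 and WT had no summit closer to Cd68 than 3498 bp.

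Kdr, the main receptor for vascular endothelial growth factor, was called in every library. In Cho Rep2 the Kdr summit lay 859 bp from the record start and 242 bp from the curated start. The promoter fold enrichment of Kdr was 8.02 and 7.44 in the Cho replicates, 7.73 ± 0.412 (SD, n = 2), 5.88 in WT and 7.69 in the deletion. Of all called promoters in the same list, 27.4%, 12.1%, 7.59% and 17.7% were weaker. The summits held 18, 21, 7 and 12 tags, or 13.2, 10.7, 19.4 and 19.2 times the library background. The median called promoter stood at 20.5, 67.5, 80.4 and 65.5 times that background, so Kdr was called everywhere and was low everywhere.

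Tek, the angiopoietin receptor, had promoter fold enrichments of 9.71 and 12.2 in the Cho replicates, 10.9 ± 1.74 (SD, n = 2), 4.41 in WT and 7.99 in the deletion, with summits 161 to 430 bp upstream of the gene. In WT the summit held 5 tags, where the smallest number in any WT peak was 4, and 1.36% of called WT promoters were weaker. At 13.9 times the library background in WT and 16.1, 17.9 and 19.2 times in Cho Rep1, Cho Rep2 and the deletion, Tek lay below the median called promoter in each list.

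Pecam1 (CD31) was called in Cho Rep1 at 7.18, in WT at 8.31 and in the deletion at 16.5, and not in Cho Rep2. Those summits lay 594 to 652 bp upstream of the start of the NCBIM37 record, which is 35363 bp upstream of the start of the curated coding transcript and within 1 kb of the start of Milr1, a receptor gene of mast cells. Cho Rep2 had the same site, at a fold enrichment of 11.8, but its annotation starts Pecam1 elsewhere, so the site was not counted. No library had a summit within 1 kb of the curated Pecam1 start, and the closest were 7632 bp upstream in Cho Rep1, 1505 bp into the gene in Cho Rep2, 7767 bp upstream in WT and 1397 bp into the gene in the deletion. The site was thus present in all 4 libraries, and its count as a Pecam1 promoter rested on the annotation. Cdh5, the cadherin of endothelial junctions, had no summit closer than 2465 bp in any library.

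Promoter calls followed CpG content over all genes, and 7 of the 10 genes were poor in CpG, with at most 5. Of genes with at most 5 CpG in the 300 bases, 15.0% had a promoter peak in WT, and of genes with more, 84.5% did. Of the 7 blood and endothelial genes with at most 5 CpG, 2 were called in WT, Pecam1 and Tek. Of the 3 with more, 1 was called in WT, which was Kdr, and Gata1 and Tal1 were not. The 7 CpG-poor genes had 2 calls in Cho Rep1, 3 in Cho Rep2 and 4 in the deletion, where 12.1%, 24.5% and 21.7% of all genes of that class were called. The 3 others had 2, 2 and 1 calls in those libraries, where 80.6%, 84.1% and 89.6% of their class were called. The counts are small, and those of the CpG-poor genes include Pecam1 and Spi1, whose calls rested on the start of the gene record. The classes rested on that start too. At the curated starts in NCBIM37, Gata1 held 4 CpG and Spi1 11, so both would change class.

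**Figure D2:**
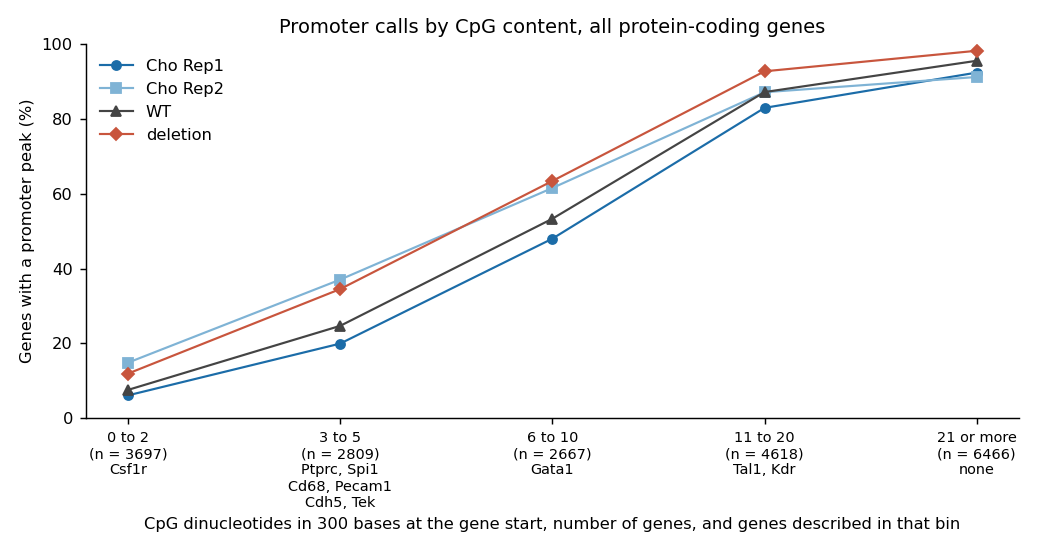
Percentage of all protein-coding genes with a promoter peak, by number of CpG in the 300 bases at the gene start, with 1 line per library and the 10 genes named under their bin. The share in WT rises from 7.60% of genes with 0 to 2 CpG to 95.5% of genes with 21 or more, and 6 of the 10 genes sit in the bin of 3 to 5 CpG, where 24.7% were called in WT.

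Related genes of the same lineages gave a graded picture. None of 9 lymphoid genes, such as the T cell receptor gene Cd3e, had a promoter peak in any library. Of 20 macrophage and pan-leukocyte genes, 2 were called in Cho Rep1 and 3 in each other library, and 16 in none, including Itgam, Adgre1 (F4/80), Tyrobp and C1qa. Fcgr3, an antibody receptor gene, was called in all 4 libraries, with 7.96 in WT, and Lyz2, the lysozyme gene of myeloid cells, was called in Cho Rep2, WT and the deletion, at 11.8, 11.03 and 16.6. Cd14, a coreceptor for bacterial lipopolysaccharide, was called in Cho Rep1, WT and the deletion, at 4.65, 6.74 and 9.38. Of 8 erythroid and megakaryocyte genes 1 to 3 were called per library. The lymphoid and macrophage lists lay below the shares of all genes called, which ranged from 58.6% to 67.8%. Their median CpG content was also lower, at 7 and 4.5 CpG against 13 over all genes. The macrophage list mixed CpG-poor and CpG-rich genes. Of its 3 genes called in WT, Fcgr3 held 36 CpG, Cd14 6 and Lyz2 1. The macrophage counts also depended on the window, and a limit of 2 kb gave 4, 7, 5 and 5 in Cho Rep1, Cho Rep2, WT and the deletion.

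The list of blood transcription factors lay closer to the share of all genes. Of its 12 genes, 5 were called in Cho Rep1, 9 in Cho Rep2, 6 in WT and 9 in the deletion. Those called in all 4 were Runx1, Myb, Cebpa and Irf8, and Cebpa was the strongest in WT at 11.8. Klf1, Lmo2 and Cebpe were called in none. Of 24 further endothelial genes, 6, 8, 8 and 11 were called in the same order, and 13 in none, among them Vwf, Tie1, Emcn, Plvap and Sox17. These were 25%, 33.3%, 33.3% and 45.8% of the list, below the share of all genes in every library, at 58.6% to 67.8%. The share called in none was 54.2%, against 28.0% of all genes. The median CpG content of this list was also lower, at 8 CpG against 13. With a limit of 2 kb the count of this list in Cho Rep2 was 14, and with 500 bp the count in WT was 4. Flt1, Flt4, Sox7, Cldn5 and Prox1 were called in all 4 libraries, with Prox1, a factor of lymphatic endothelium and of other tissues, at 19.8, 22.5, 12.4 and 14.2. Erg, an ETS factor of endothelium and cartilage, was called in all but Cho Rep1, at 14.3, 11.8 and 12.3. By contrast, 12 constitutive genes had 11, 10, 12 and 12 calls.

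**Figure D3:**
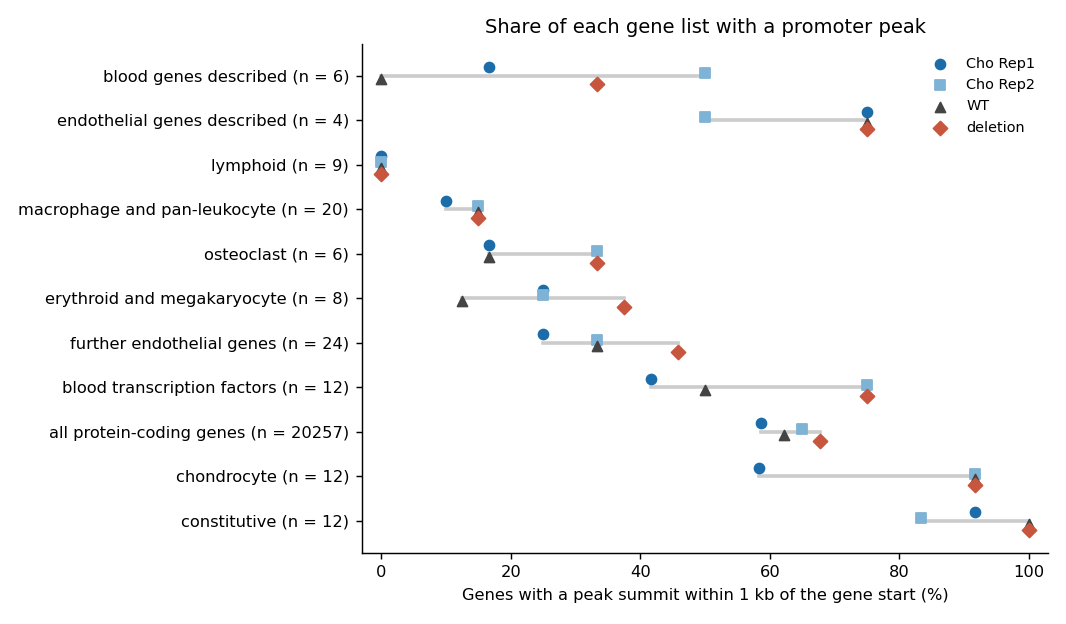
Percentage of the genes of each list with a promoter peak, with 1 symbol per library and a grey bar from the lowest to the highest library. The lymphoid list stays at 0% and the macrophage list between 10% and 15%, all genes lie between 58.6% and 67.8%, and the constitutive list lies at 83.3% or above.

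Taken whole, the loci were not bare of peaks. The gene bodies with 50 kb on each side held 63 peaks in Cho Rep1, 101 in Cho Rep2, 82 in WT and 150 in the deletion. These counts include peaks at promoters. Without peaks at the starts of other genes, 50, 82, 58 and 124 remained in the same order. With all peaks counted, the median locus of the 10 had 5.17, 7.32, 6.03 and 11.2 peaks per 100 kb. The median over all genes was 4.41, 9.03, 5.85 and 10.5. Tek had the fewest in every library, between 0.849 and 2.97 per 100 kb, and Cd68, in a gene-dense region, had the most, between 7.85 and 18.6. By this measure the loci lay near the median of all genes in each library.

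Distances in the loci were measured from a start matched between the builds. In NCBIM37 it was the curated start at Pecam1 and Gata1, 35363 and 10161 bp from the record start. Summits within 150 bp of each other by this distance were joined across libraries into 183 sites. Of these, 76 were seen in 1 library, 35 in 2, 39 in 3 and 33 in all 4. Of the 33, 19 lay over 1 kb from the start of any protein-coding gene and 12 lay at the start of a neighbour. All 5 of the Cd68 locus were at neighbours, namely Senp3, Eif4a1, Mpdu1 and Fxr2, and the single one of the Gata1 locus lay at Hdac6. The Tal1 locus held 4, the Cdh5 locus 4, the Spi1 and Csf1r loci 3 each and the Ptprc locus 2 away from any start. The loci of several genes without a promoter peak thus held shared distal sites. Some of these lay inside neighbouring genes, such as Pdgfrb and Hmgxb3 at the Csf1r locus and Bean1 at the Cdh5 locus.

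**Figure D4:**
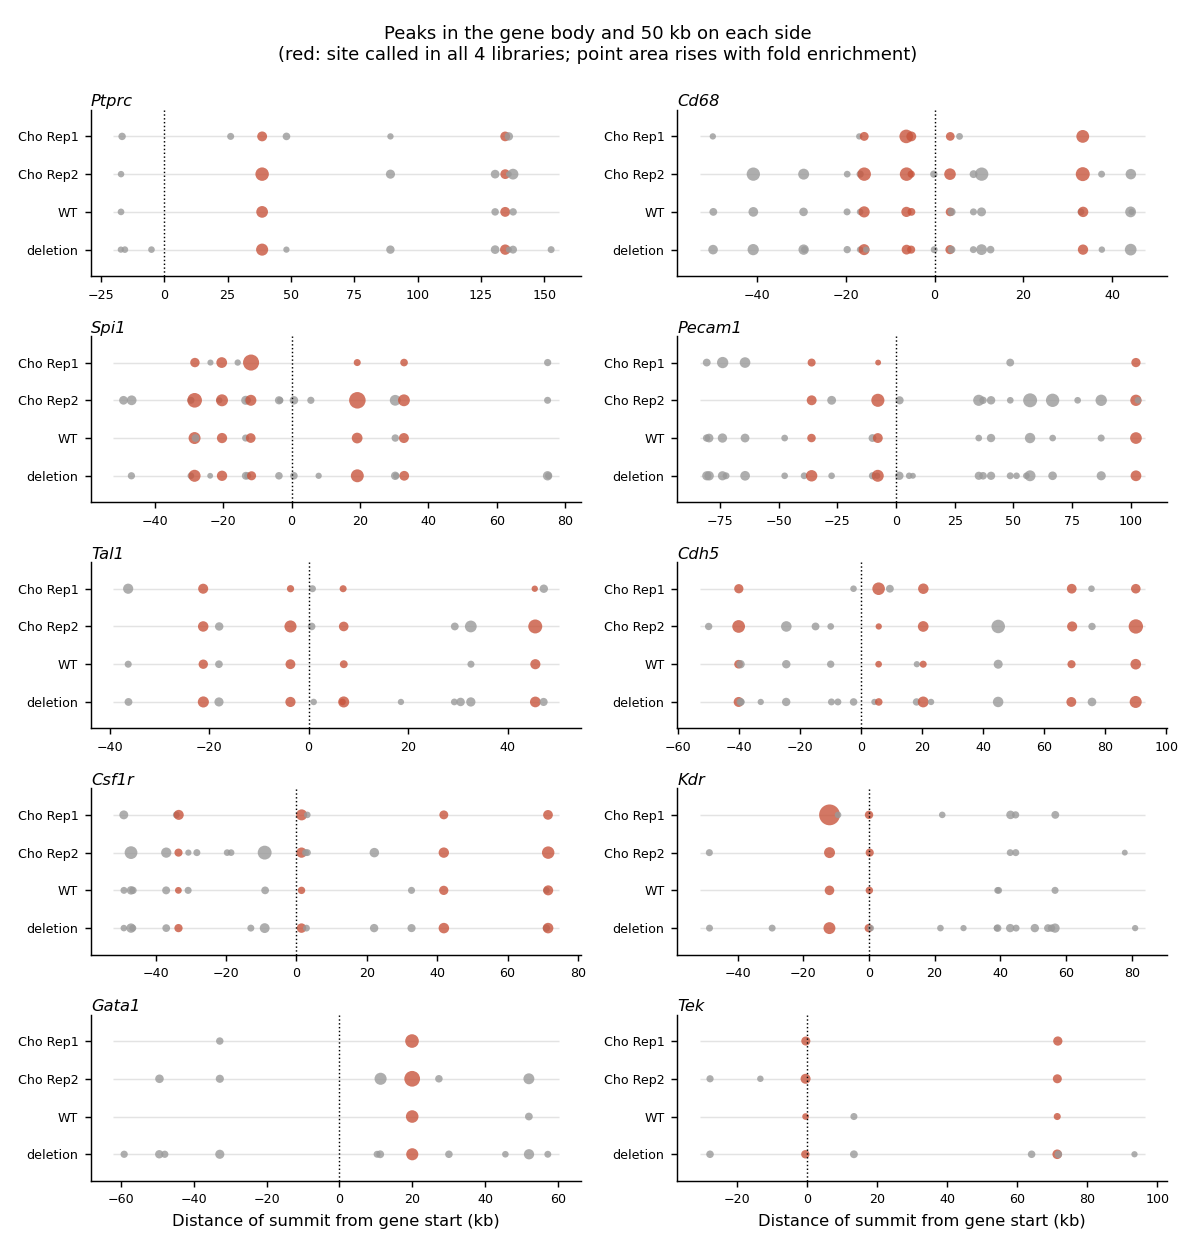
Peaks of each locus by distance of the summit from the start matched between builds (kb, dotted line at 0), with 1 row per library. At Pecam1 and Gata1 that start is the curated one. Point area rises with fold enrichment, and red marks sites called in all 4 libraries. At Kdr the largest red site lies 12.0 kb upstream, Ptprc has a red site 38.7 kb into the gene and none near its start, and the 5 red sites of Cd68 all belong to neighbours.

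For 5 of these distal sites the 101 bases around the WT summit are shown, since they carry the strongest WT signal away from any start at Kdr, Ptprc, Spi1 and Cdh5, and at Pecam1 the strongest of those found in all 4 libraries. They were read from NCBIM37 on the plus strand. Capitals mark matches on either strand to short motifs of 5 kinds of factor. The ETS motif searched was AGGAAG, a motif of factors such as PU.1 and Erg. The GATA motif was AGATAA and the RUNX motif was TGTGGT. The AP-1 motif was TGANTCA, and the CTCF core motif was searched by its consensus.
Kdr 12.0 kb upstream, chr5:76386437-76386537, plus strand: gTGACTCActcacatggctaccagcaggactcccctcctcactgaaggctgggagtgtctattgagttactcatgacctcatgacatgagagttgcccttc
Cdh5 90.0 kb downstream of the start, chr8:106715437-106715537, plus strand: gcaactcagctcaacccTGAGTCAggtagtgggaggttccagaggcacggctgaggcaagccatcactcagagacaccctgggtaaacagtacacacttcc
Spi1 19.2 kb downstream of the start, chr2:90941670-90941770, plus strand: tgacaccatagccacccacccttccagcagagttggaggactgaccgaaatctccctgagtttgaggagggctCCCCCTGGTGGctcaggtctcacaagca
Pecam1 7.77 kb upstream of the curated start, chr11:106584296-106584396, plus strand: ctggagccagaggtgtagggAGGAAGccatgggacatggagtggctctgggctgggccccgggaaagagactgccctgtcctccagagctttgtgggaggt
Ptprc 38.7 kb into the gene, chr1:140033176-140033276, plus strand: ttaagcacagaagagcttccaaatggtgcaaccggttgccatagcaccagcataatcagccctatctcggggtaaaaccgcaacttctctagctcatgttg
The Kdr and Cdh5 sites each held an AP-1 match, the Spi1 site a CTCF match and the Pecam1 site an ETS match, and the Ptprc site held none of the 5 motifs.

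The Kdr site, in intergenic DNA, had fold enrichments of 58.7 in Cho Rep1, 14.9 in Cho Rep2, 10.98 in WT and 18 in the deletion, above the Kdr promoter in every library. It stood apart in Cho Rep1, at 101 times the library background against 21.98, 38.8 and 60.7 times in the others. The Ptprc intron site had 11.8, 23.5, 17.4 and 18.6, and a further Ptprc site 134.6 kb downstream of the start, past the end of the gene, had 11.4, 11.5, 11.8 and 13.2. The 2 Ptprc sites were thus called in all 4 libraries at a gene whose start was called in none.

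The Spi1 site, in an intron, had fold enrichments of 5.07, 36.3, 14.3 and 21.5 in Cho Rep1, Cho Rep2, WT and the deletion. The Pecam1 site, 7.77 kb upstream of the curated start, had 2.96, 22.2, 11.8 and 18.2, and a site 57.1 kb into that gene had 25.3, 13.2 and 14.8 in Cho Rep2, WT and the deletion. A Tal1 site 45.6 kb downstream of the start had 3.80, 25.4, 12.5 and 14.3. At these sites Cho Rep1 was lowest or not called and Cho Rep2 was highest, and at the Kdr site Cho Rep1 was highest.

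Tal1 also had a site 3.64 kb upstream of its start, with 5.49, 18.6, 11.8 and 12.6 in the same order of libraries. The Cdh5 site 90.0 kb downstream of the start, in an intron of the neighbour Bean1, had 10.98, 27.0, 13.9 and 18.4, and inside Cdh5 an intron site 5.75 kb from the start had 20.3, 3.72, 4.41 and 6.15. The Tek site, 71.5 kb into the gene, had 10.1, 9.47, 5.15 and 11.1 and was the only site of Tek besides its promoter in all 4 libraries. The strongest WT site of Csf1r away from any start lay 41.9 kb from its start in an exon of the neighbour Hmgxb3, at 9.29, 13.2, 10.1 and 13.6. The order of the libraries thus changed from site to site within a locus.

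AP-1 and RUNX matches at the loci were near those of all WT peaks. Among 56 WT peaks of the loci that lay away from gene starts, AP-1 matches were present within 100 bp of the summit in 23.2%, against 23.0% of all 73485 such WT peaks. ETS matches were present in 17.9% against 25.6%, GATA matches in 3.57% against 5.16%, RUNX matches in 21.4% against 22.8% and CTCF matches in 10.7% against 6.14%. In the 300 bases at the gene start, AGGAAG was present at 4 of the 10 genes, Ptprc, Spi1, Gata1 and Pecam1, against 34.4% of all promoters, and AGATAA at Tal1 and Tek, against 9.997%. TGTGGT was present at Gata1 alone, against 14.6% of all promoters, TGANTCA at 2 genes, against 6.96%, and the CTCF motif at none, against 0.918%. These matches were read at the record starts. At the curated starts in NCBIM37, Pecam1 had no AGGAAG match and Gata1 no TGTGGT match, whereas AGGAAG was still present at Spi1 and Gata1. A match describes letters in a window and does not show that a factor binds.

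WT and the deletion were compared as a pair of libraries on the same build. The deletion list was the longer, with 1.86 times as many peaks and 1.88 times the estimated tag depth. Of the 82 WT peaks in the 10 loci, 79 overlapped a deletion peak by at least 1 bp, 96.3% (exact binomial 95% interval 89.7% to 99.2%), against 95.9% of all WT peaks. Of the 150 deletion peaks in the loci, 50.7% (42.4% to 58.9%) overlapped a WT peak, against 49.4% of all deletion peaks. Both shares of all peaks lay inside the intervals of the loci. The 3 WT peaks without a deletion peak were weak, with 4 to 8 tags at the summit, and lay in the Cdh5 locus, where there were 2, and the Csf1r locus.

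At the 79 shared peaks the median log2 ratio of fold enrichment, deletion over WT, was 0.40, against 0.28 over all 87274 shared peaks, and the deletion was the higher at 59 of the 79. By the ratio of summit tags, each divided by its library background, the median log2 ratio was 0.06 against -0.01, with the deletion higher at 44 of the 79. By tag depth it was -0.06 against -0.13, so the direction of the difference turned with the scaling, for the loci as for all peaks. Of the 79 ratios scaled by background, 75 had a 95% counting interval that held 1, 4 lay above 1 and 0 below. The intervals were not adjusted for the number of ratios. At 3 of the 4 above 1 the WT and deletion summits were 223 to 476 bp apart, and the deletion peak was also paired with another WT peak. At the fourth, in an intron of Cdh5 20.3 kb from the start, the summits were 9 bp apart and held 6 tags in WT and 26 in the deletion, a ratio of 2.49 (1.004 to 7.41).

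**Figure D5:**
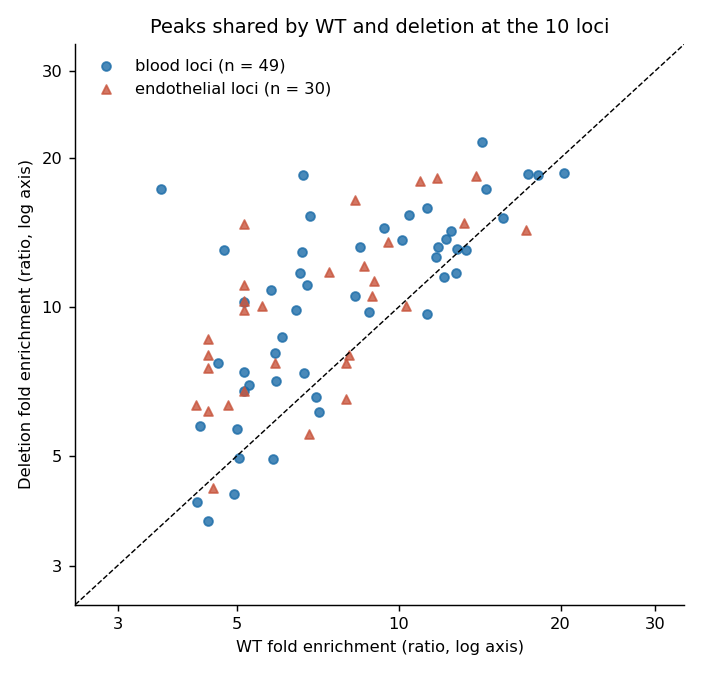
Fold enrichment (ratio, log axes) of the 79 WT peaks in the 10 loci that overlap a deletion peak, in WT and in the deletion, with 49 peaks of blood loci, 30 of endothelial loci and a dashed line of equality. The deletion is the higher at 36 of the 49 and at 23 of the 30.

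At the promoters the intervals of the same ratio were wide and held 1. The ratio of summit tags over background, deletion over WT, was 0.987 (95% counting interval 0.358 to 2.96) at Kdr, 1.38 (0.453 to 5.01) at Tek and 1.41 (0.678 to 3.16) at the Pecam1 record start. By fold enrichment the log2 ratios were 0.39, 0.86 and 0.99. Spi1 and Cd68 were called in the deletion and not in WT. Their summits in the deletion held 9 and 26 tags, 14.4 and 41.5 times its library background, and the smallest WT peak held 4 tags. These differences have no ratio, since WT has no listed value there, and were not tested. With 1 library per genotype, a difference between genotypes and one between libraries cannot be told apart.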

How the data were processed

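ATAC-Seq peak lists of 4 libraries were analysed. The authors trimmed reads with fastp, aligned them with Bowtie2 2.4.4, handled files with SAMtools 1.9 and Picard, and called peaks with MACS2 2.2.4 at a q-value of 0.05. Per peak, the authors gave a ratio, the tags stacked at the summit over the local background, each raised by a pseudocount of 1. They also deposited 2 columns of −log10 values, for the p-value and the q-value, and a score that follows the second of these and was not used further. Cho Rep1, WT and the deletion were read as NCBIM37 (mm9) with GENCODE genes. Cho Rep2 was read as GRCm38 with RefSeq genes, although the labels name mm9, because its positions run past the NCBIM37 chromosomes. No coordinates were converted.

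Where an interval had several summits, the strongest was kept. A gene was called when a summit lay within 1 kb of its record start, and loci were gene bodies with 50 kb on each side. Genes were matched by symbol or synonym, and 20257 were found in both annotations. Gfi1 and Myct1 of the related lists were not analysed here. Summit tags were solved from the deposited ratio and p-value under a Poisson model, which was tested on simulated data, and library backgrounds and depths were estimated from them. No tag counts were given, so these depths are estimates. Overlaps used bedtools 2.31.1 at 1 bp or more, with calculations in Python 3.11.15, using scipy 1.17.1, pandas 2.3.3, numpy 2.4.6 and, for plots, matplotlib 3.10.9. Intervals are exact (Clopper-Pearson, 95%) and cover counting error only. Promoter sequences and CpG counts were read from NCBIM37 at the record start.

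The genes, the related lists and the alternatives were chosen with earlier results of these data known, and the CTCF motif after sequences had been seen. All 10 genes were named. Of the related lists, genes called in all 4 libraries and up to 4 with the highest WT fold enrichment were named, along with genes called in none as examples, and of the loci, the strongest WT site away from other starts and sites found in all libraries of a build. Some results under this rule are not reported here. Alternatives changed the window, the start, the q-value, the number of peaks, the flank, the overlap and the scaling. No paired analysis was possible because the groups share fewer than 2 replicate numbers.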

Additional observations from a re-analysis of the deposited data

How the results depend on the processing

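Of 80 recomputed counts and shares of the 10 genes and their loci, 55 stayed within 1.5 times the value reported or within its interval and 25 moved. With a limit of 500 bp, 2 of the 10 genes had a promoter peak in Cho Rep1, 2 in Cho Rep2, 3 in the deletion and 1 in both Cho replicates, and with 2 kb both Cho replicates called 5, Csf1r among them. With equal numbers of the strongest peaks, Cho Rep2 called 3 and both Cho replicates 1. Called in all 4 libraries were Tek alone with 500 bp, Kdr alone with a q-value below 1e-05 and no gene with equal numbers of strongest peaks. With 2 kb they were Csf1r, Pecam1, Kdr and Tek. Measured from the curated transcript start, an alternative chosen after seeing the data, the deletion called 3, Kdr, Tek and Cd68, and neither Pecam1 nor the NCBIM37 Spi1 record was called. Leaving out a Cho replicate gave 4 to 5 genes where both had called 3. Peaks in the loci, in the order Cho Rep1, Cho Rep2, WT and deletion, numbered 29, 41, 33 and 73 with flanks of 10 kb, 109, 200, 148 and 256 with 100 kb and 20, 25, 19 and 46 in the gene bodies. Equal numbers of strongest peaks left 60 locus peaks in Cho Rep2 and 76 in the deletion, and 85.5% of WT locus peaks then overlapped a deletion peak. The median log2 ratio of deletion over WT changed sign to -0.05649 when scaled by tag depth. The window, flank and list length set these changes by construction. Of 300 recomputed values of the related lists and promoters, 260 stayed and 40 moved, and the lymphoid list, at 0 in every library, reached 2 genes in Cho Rep1, WT and the deletion with any annotated start. WT was the shallowest library by estimated depth, and no value is listed for a promoter that was not called. Among the other lists, blood transcription factors numbered 8 in Cho Rep1 with any annotated start and 4 in Cho Rep2 with equal numbers of strongest peaks, and the erythroid and megakaryocyte list fell to 0, 0, 0 and 1 with a limit of 500 bp.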

Other observations

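Osteoclasts, which arise from the macrophage lineage and resorb bone and calcified cartilage, were covered by a list of 6 genes. Promoter peaks were called at 1 of the 6 in Cho Rep1, 2 in Cho Rep2, 1 in WT and 2 in the deletion, below the shares of all genes called. Ctsk, the cathepsin of osteoclasts, which other connective tissue cells also express, was called in all 4 libraries, at fold enrichments of 5.91, 15.3, 7.63 and 10.6. Dcstamp, a membrane protein needed for fusion of osteoclast precursors, was called in Cho Rep2 at 17.6 and in the deletion at 9.84. Acp5, Oscar, Calcr and Ocstamp had no promoter peak in any library. With a limit of 2 kb the count rose to 3 in Cho Rep1, 5 in Cho Rep2, 4 in WT and 5 in the deletion, so this list depended on the window.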
